A study of Mus musculus with 18 samples.

Results

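Cnp, Mbp, Pmp22, Egr2 and Gfap are genes best known from myelinating and other glial cells, and their signals were examined in 3 populations of mouse mammary epithelial cells. The members were all probe sets of the Affymetrix MOE430 chip A or chip B whose platform annotation names 1 of these 5 genes. This gave 17 probe sets of 45037 distinct ones on the 2 chips, and 5 of 18193 annotated genes: 3 probe sets for Cnp, 8 for Mbp, 1 for Pmp22, 2 for Egr2 and 3 for Gfap. The genes were chosen by their signals in these same arrays, since Cnp and the group had been seen at higher levels in the myoepithelial population. For these 5 genes, comparisons with that population are therefore given as a description, with no test, and only the comparison of the other two populations is tested. Genes outside the group are tested in all comparisons.

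The study took freshly dissociated mouse mammary tissue and separated 3 fractions, each with 3 RNA samples hybridised to both chips. CFC is the fraction enriched for colony forming cells, at 1 in 10 cells by colony assay, taken by negative magnetic selection and cell sorting, with 3000 to 4000 cells per sample. MYO is the basal or myoepithelial fraction, enriched with magnets and sorted to a purity of 94% per the labels, with 3000 to 24000 cells. MaSC is the fraction enriched for mammary stem cells, also by negative magnetic selection and sorting, with 2000 to 4000 cells, of which 1 in 50 to 1 in 100 were stem cells. MaSC samples are thus mostly other cells that share the sorted surface phenotype. No treatment or mutation is given for any group, and strain, age and the number of animals are not given in the labels. The labels call the CFC samples biological triplicates and say nothing on this for MYO and MaSC. The spread within MYO and MaSC may therefore be technical only. All groups share 1 estimate of the spread, so p-values may rest in part on technical spread.

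Myelin is the layered membrane that Schwann cells wrap around axons in peripheral nerves and that oligodendrocytes wrap around axons in the brain and spinal cord. Mbp and Cnp encode cytoplasmic proteins of that membrane, Pmp22 encodes a membrane protein of compact peripheral myelin that is also made in epithelia, and Egr2, also called Krox20, encodes the zinc finger factor that Schwann cells need to myelinate. Gfap encodes the intermediate filament protein of astrocytes and of non-myelinating Schwann cells. Egr2 also belongs to the immediate early genes that many cell types switch on within minutes of a stimulus.

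Signals are the linear intensities that the authors deposited. Every array had a mean signal between 1455 and 1488 after trimming of both tails, and a signal of 300 was taken as the limit for a dim value. Log2 differences were computed on log2(signal + 150), which understates the change of dim probe sets, and are given ± SE from 1 limma fit per chip over its 9 arrays. The labels were checked with keratins and actin. Krt5, a keratin of basal cells, read 181 to 1280.4 in CFC, 19242 to 41731 in MYO and 11421 to 50567 in MaSC. Krt18, a luminal keratin, read 95288 to 203907 in CFC, 6620 to 20631 in MYO and 21121 to 31625 in MaSC. The basal probe sets Krt14 1423935_x_at (log2 4.92 for MaSC over CFC), Krt14 1460347_at (5.95) and Acta2 1416454_s_at (5.06) were also higher in MaSC. The other sets of these genes were not called: Krt14 1455573_at (0.12), Acta2 1456658_at (-0.18) and Acta2 1444105_at (-0.35). For MaSC from CFC, Krt8 1420647_a_at had a log2 difference of -1.57 (limma, adjusted p = 0.129), 1423691_x_at of -1.68 (0.105) and 1435989_x_at of -1.81 (0.0693). For MYO from CFC these Krt8 sets differed by -2.48 (limma, adjusted p = 0.00167), -2.58 (0.00167) and -2.73 (0.000925), all called. Each of the 18 handling records named the RNA sample and chip of its label. Chip A was scanned on 2 days: CFC1 to CFC3, MYO1, MYO3, MaSC1 and MaSC2 on the first, MYO2 and MaSC3 on the second.

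Promoter windows from 250 bases before to 50 bases after the gene start were taken from RefSeq (build GRCm38.p6) for 4 of the members, 11 windows in all: 1 for Cnp, 4 for Pmp22, 5 for Egr2 and 1 for Gfap. Mbp is named only. Both strands were searched for GCGNGGGCG, the motif of the EGR factors that include Egr2, for ACAAAG, a core motif of SOX factors such as Sox10, and for GGAATG, the motif of TEAD factors. The EGR motif was in 0 of the 11 windows and in 5.55% of the 32851 windows of the table. The SOX motif was in 1 of 11 and in 18.7% of all, and the TEAD motif in 3 of 11 and in 14.7% of all. The 11 windows are not separate sequences. Egr2 windows 3, 4 and 5 start at 67537619, 67537620 and 67537680 and share most of their bases, and Pmp22 windows 3 and 4 overlap in part. The motifs do not overlap in these windows. The 3 windows with a match are printed, picked after the search, because Cnp, Pmp22 and Egr2 each had a probe set with higher MYO values. They lie at chr11:100574689-100574988 for Cnp, chr11:63128732-63129031 for Pmp22 (window 1) and chr10:67537316-67537615 for Egr2 (window 2), all on the plus strand, and capitals mark the matches.
Cnp: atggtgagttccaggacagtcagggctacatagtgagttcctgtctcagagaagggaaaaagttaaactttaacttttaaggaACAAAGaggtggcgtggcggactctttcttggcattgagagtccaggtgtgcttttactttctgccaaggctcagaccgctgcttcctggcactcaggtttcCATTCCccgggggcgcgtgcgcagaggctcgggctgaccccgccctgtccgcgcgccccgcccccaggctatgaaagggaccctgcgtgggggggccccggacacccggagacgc
Pmp22: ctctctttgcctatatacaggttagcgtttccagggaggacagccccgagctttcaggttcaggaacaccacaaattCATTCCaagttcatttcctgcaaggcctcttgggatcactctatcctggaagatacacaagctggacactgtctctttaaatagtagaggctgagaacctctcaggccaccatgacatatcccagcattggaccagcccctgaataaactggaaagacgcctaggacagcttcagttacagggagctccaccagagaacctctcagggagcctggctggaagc
Egr2: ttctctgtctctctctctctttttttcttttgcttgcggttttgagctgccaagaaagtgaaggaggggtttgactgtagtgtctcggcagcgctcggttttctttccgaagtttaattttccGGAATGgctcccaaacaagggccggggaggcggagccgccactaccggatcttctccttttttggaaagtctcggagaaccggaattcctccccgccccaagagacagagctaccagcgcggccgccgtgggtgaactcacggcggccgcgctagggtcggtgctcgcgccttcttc
In the Cnp window ACAAAG lay at -167 to -162 from the start, on the plus strand, and GGAATG at -65 to -60 on the minus strand, where it reads as its reverse complement. In the Pmp22 window GGAATG lay at -173 to -168 on the minus strand, and in the Egr2 window at -127 to -122 on the plus strand. A match describes the letters of the window and is not evidence of a bound site.

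Pmp22 was higher in MaSC than in CFC. Its 1 probe set, 1417133_at, read 3220.5, 1867 and 1316 in CFC, 9892, 17873 and 10799.7 in MYO, and 6299, 10595 and 9159.9 in MaSC. Each of the MYO and MaSC samples lay above all 3 CFC samples, while MYO and MaSC overlapped. The means were 2134 ± 980.1 in CFC, 12855 ± 4369 in MYO and 8685 ± 2187 in MaSC (SD, n = 3). MaSC exceeded CFC by a log2 difference of 2.01 ± 0.41, or 4.02-fold (limma, adjusted p = 0.00632). This comparison does not use the MYO samples as a group, but it shares the CFC samples with the comparison behind the choice of genes. The described difference of MYO over CFC was 2.55 ± 0.41, or 5.84-fold, and that of MYO over MaSC was 0.54 ± 0.41. Within the first scan day MaSC exceeded CFC by 1.95 (adjusted p = 0.0457), and with scan day as a block by 1.85 (adjusted p = 0.0314). The adjusted p passed 0.05 when CFC3 (log2 1.73, adjusted p = 0.0633) or MaSC2 (1.85, 0.0539) was left out.

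Mbp had 8 probe sets, and they did not behave as one. Suffixes in the probe set names describe the design: a_at sets match several transcripts of 1 gene, s_at sets match transcripts that may come from several genes, and x_at sets hold some probes that can match other sequences. Mbp is a gene with many alternative transcripts. The 5 sets with higher MYO means are described first and the other 3 after them, a division made after the values were seen.

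Mbp 1456228_x_at read 1018, 169 and 186 in CFC, 4634, 17052 and 5286 in MYO, and 4485, 3576 and 2709 in MaSC. CFC lay below MaSC, and MaSC lay below MYO, without overlap. MaSC exceeded CFC by 2.87 ± 0.56, or 7.33-fold (limma, adjusted p = 0.00371). The described differences were 3.93 ± 0.56 for MYO over CFC, 15.3-fold, and 1.06 ± 0.56 for MYO over MaSC. Mbp 1433532_a_at, whose name marks no probes shared with other genes, read 1309, 124 and 87.3 in CFC, 1765, 15264 and 4030.4 in MYO, and 4992, 2236 and 1899 in MaSC. Again every CFC sample was lowest, and CFC2 and CFC3 were dim. MaSC exceeded CFC by 2.68 ± 0.69, or 6.42-fold (limma, adjusted p = 0.0441), a call close to the threshold: it was lost with scan day as a block (2.40, adjusted p = 0.151) and within the first scan day (2.94, adjusted p = 0.0816). MYO exceeded CFC by 3.45 ± 0.69, 10.9-fold, as a description.

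Mbp 1419646_a_at read 1686, 1240.2 and 1473 in CFC, 2176, 7525 and 4855 in MYO, and 6389, 2195 and 1994 in MaSC. All 6 MYO and MaSC samples exceeded the highest CFC sample, yet the difference of MaSC from CFC was 1.00 ± 0.51 (limma, adjusted p = 0.625). Mbp 1436201_x_at read 1083, 1160.3 and 2283 in CFC, 5722, 9979 and 2028 in MYO, and 6626, 1870.0 and 1379 in MaSC, so that all 3 groups overlapped. Mbp 1454651_x_at read 483, 1089 and 1253 in CFC, 1400.0, 3999.8 and 2549.8 in MYO, and 1329, 1707 and 331 in MaSC. All MYO samples and MaSC1 and MaSC2 lay above CFC, MaSC3 was the lowest of the 9, and MaSC differed from CFC by 0.09 (adjusted p = 0.988). MYO2, 1 of the 2 samples scanned on the second day, had the highest value of all 9 samples in 5 of these 5 probe sets. Within the first scan day, which leaves MYO2 out, MYO exceeded CFC by 3.35 in 1456228_x_at, 2.63 in 1433532_a_at, 1.09 in 1419646_a_at, 1.18 in 1436201_x_at and 0.99 in 1454651_x_at.

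The other 3 Mbp probe sets showed no higher level outside CFC. Mbp 1425263_a_at read 2339, 2300.2 and 2329.5 in CFC, 1175, 828 and 1494 in MYO, and 2317, 1335 and 175 in MaSC. All MYO and MaSC samples were below the CFC samples or, in MaSC1, between them. MaSC differed from CFC by -1.22 ± 0.64 (limma, adjusted p = 0.638) and MYO, as a description, by -0.94 ± 0.64. Mbp 1425264_s_at read 1603 to 3783 over all 9 samples and Mbp 1451961_a_at 779 to 1799, with log2 differences of MaSC from CFC of -0.18 (adjusted p = 0.967) and -0.25 (adjusted p = 0.964). Over the 9 RNA samples, the first 5 sets correlated with each other at r = 0.47 to 0.97 over 10 pairs, and with the other 3 at r = -0.48 to 0.22 over 15 pairs. These are correlations of log2 signals that share arrays and scaling, given as a description. Which transcripts each probe set reads was not analysed here.

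**Figure D1:**
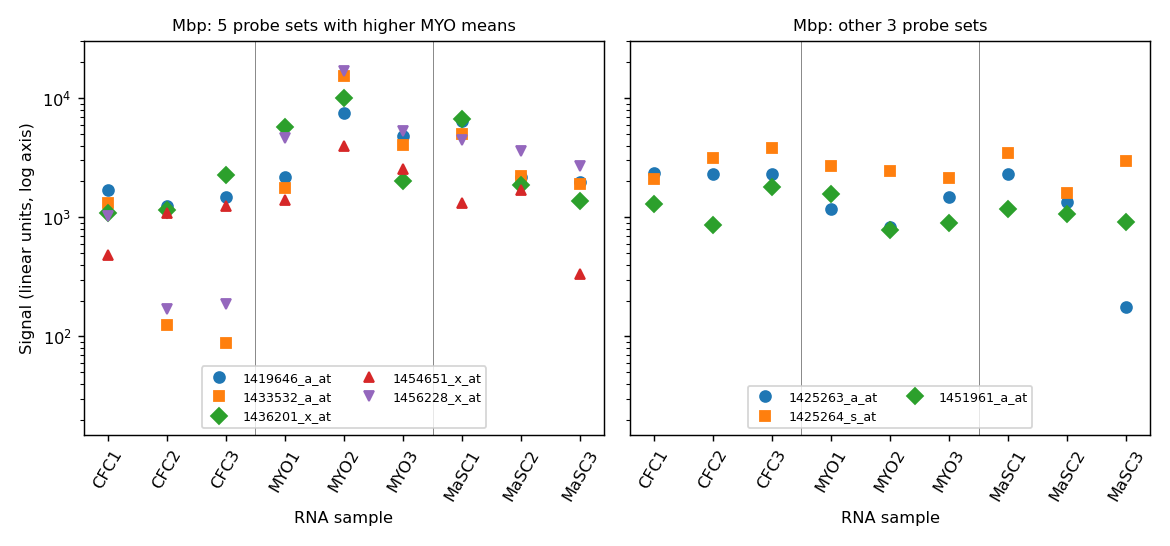
Signal of the 8 Mbp probe sets in each RNA sample (linear units on a log axis), with the 5 sets with higher MYO means on the left and the other 3 on the right. In the left panel 1456228_x_at and 1433532_a_at run from below 300 in CFC2 and CFC3 to 17052 and 15264 in MYO2, while in the right panel no set is higher in MYO.

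Cnp, which encodes the enzyme CNPase of non-compact myelin, had 3 probe sets with unlike patterns. Cnp 1437341_x_at read 173, 2222 and 380.0 in CFC, 3599, 6844 and 5033 in MYO, and 1884, 2117 and 5665 in MaSC. MYO lay above CFC without overlap, whereas CFC2 lay above MaSC1 and MaSC2. The described difference of MYO over CFC was 2.80 ± 0.60, or 6.95-fold. MaSC differed from CFC by 2.02 ± 0.60 (limma, adjusted p = 0.126), and by 2.86 (adjusted p = 0.0105) once CFC2 was left out. Cnp 1418980_a_at read 86.4, 1137 and 111 in CFC, 574, 1084 and 1579.8 in MYO, and 1354, 201 and 1296 in MaSC. CFC2 was again the high CFC sample, all groups overlapped, and MaSC differed from CFC by 1.09 ± 0.82 (adjusted p = 0.811). Cnp 1449296_a_at read 1701, 554 and 1358 in CFC, 394, 1033 and 1759 in MYO, and 116, 864 and 1775 in MaSC, a difference of MaSC from CFC of -0.64 ± 0.76 (adjusted p = 0.913). The first pair of these probe sets correlated at r = 0.82 over the 9 RNA samples, and the third correlated with them at -0.28 and -0.11. The higher level in MYO thus rests, for Cnp, on 1 x_at probe set and in part on a dimmer a_at set.

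Egr2 was the regulator among the 5 genes, and both of its probe sets had higher MYO values. Egr2 1427682_a_at read 1792, 621 and 170.0 in CFC, 6715, 2778 and 3869 in MYO, and 2561, 1251 and 2209 in MaSC. Each MYO sample exceeded every other sample, while CFC1 lay above MaSC2. Egr2 1427683_at read 2695, 1175 and 1079 in CFC, 3792, 12572 and 8913 in MYO, and 5696, 4234 and 4309 in MaSC. Here every CFC sample was below all of the others. The described differences of MYO over CFC were 2.47 ± 0.59 and 2.21 ± 0.47, or 5.53-fold and 4.61-fold. MaSC differed from CFC by 1.41 ± 0.59 (limma, adjusted p = 0.456) and 1.54 ± 0.47 (adjusted p = 0.132), neither past the threshold. The pair correlated at r = 0.76 over the 9 RNA samples.

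Gfap signals were low and scattered in all groups. Its 3 probe sets read between 75.8 and 1421.9, and 10 of 27 values were below the limit of 300. Gfap 1426508_at read 653, 182 and 891 in CFC, 988, 1422 and 127 in MYO, and 1051, 665 and 151 in MaSC. Gfap 1426509_s_at read 126, 347 and 759.9 in CFC, 1053, 77.7 and 895 in MYO, and 538, 503 and 106 in MaSC. Gfap 1440142_s_at, the member on chip B, read 149.5, 119.5 and 1406 in CFC, 472, 75.8 and 726 in MYO, and 1032, 706 and 153 in MaSC. In each set the spread within a group was as large as the distance between groups. MaSC differed from CFC by 0.03 (limma, adjusted p = 0.997), -0.04 (0.996) and 0.43 (1), and MYO differed from CFC by 0.28, 0.40 and -0.01. Gfap therefore did not share the higher MYO level for which the group was picked.

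**Figure D2:**
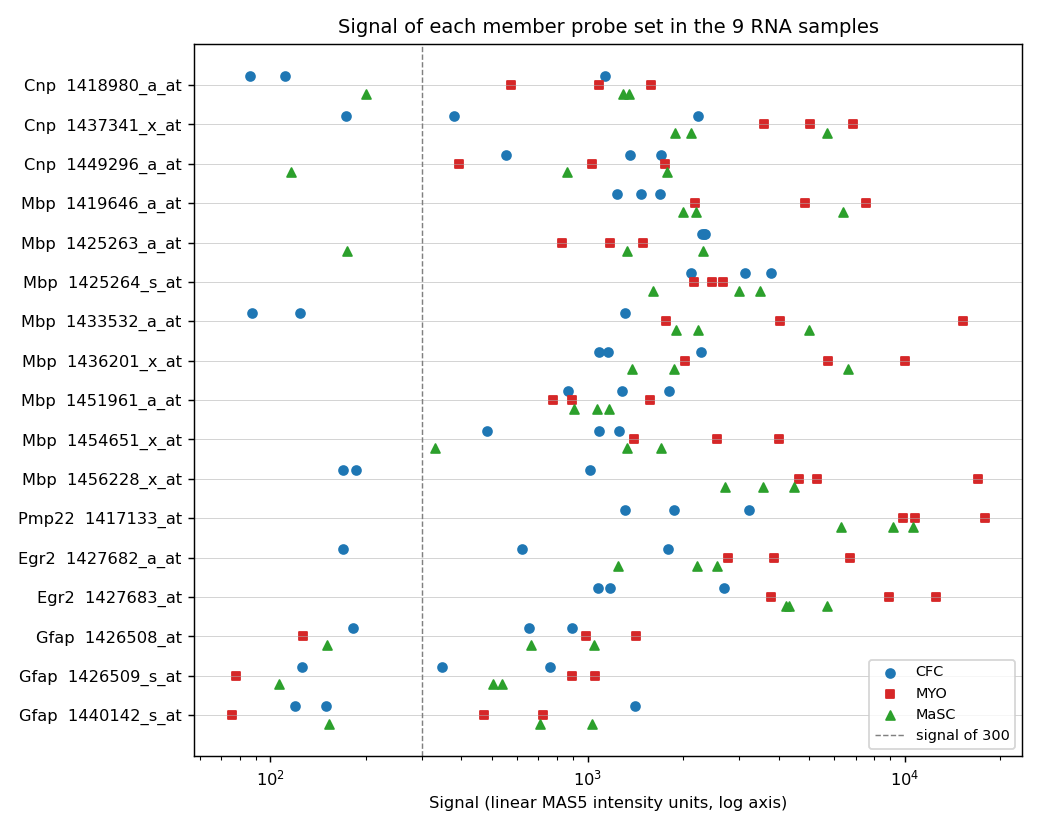
Signal of all 17 member probe sets in each RNA sample (linear units on a log axis), 1 row per probe set. The Pmp22 samples of MYO and MaSC sit between 6299 and 17873, all above the CFC samples, and the Gfap values sit between 75.8 and 1421.9 with no separation.

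Over all members, 3 of 17 probe sets were called higher in MaSC than in CFC and 0 lower (limma, adjusted p under 0.05), against 0.438% called higher and 0.183% called lower among the 41553 probe sets tested on both chips. The 3 calls were Pmp22 1417133_at and the Mbp sets 1456228_x_at and 1433532_a_at, which belong to 2 genes. All 17 members passed the filter on dim values. An unadjusted p under 0.05 was reached by 6 of the 17, and by 2806 of the 41553 probe sets tested. The choice of genes high in MYO also favours probe sets that are low in these same CFC samples, so the members' counts against the shares of all probe sets are a description and are not independent of the choice. In 5 of the 17 all MaSC samples exceeded all CFC samples, and in 0 of the 17 were all of them below, against 5.58% and 6.29% of all tested probe sets. The median log2 difference was 0.80 over the members and -0.02 over all probe sets, with 12 members above 0 and 5 below. Several probe sets are annotated to the same gene and all come from the same RNA samples, so these 17 values are not independent.

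For MYO against CFC, 8 of 17 probe sets lay higher without overlap and 1 lower, against 5.77% and 6.22% of all tested probe sets. The median log2 difference was 1.43, and 0.40 over the 13 members that are not x_at sets, since all 4 x_at members (1 of Cnp and 3 of Mbp) had differences above 1. Nothing is read from these counts, because this difference chose the genes. For MYO against MaSC, 2 of 17 lay higher without overlap (Mbp 1456228_x_at and Egr2 1427682_a_at) and 0 lower, against 4.37% and 4.28% of all probe sets, with a median of 0.48. No probe set of the chips was called between MYO and MaSC (limma, adjusted p), while 1660 of 41553 had an unadjusted p under 0.05. In bulk RNA, fewer expressing cells and less RNA per cell cannot be told apart.

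**Figure D3:**
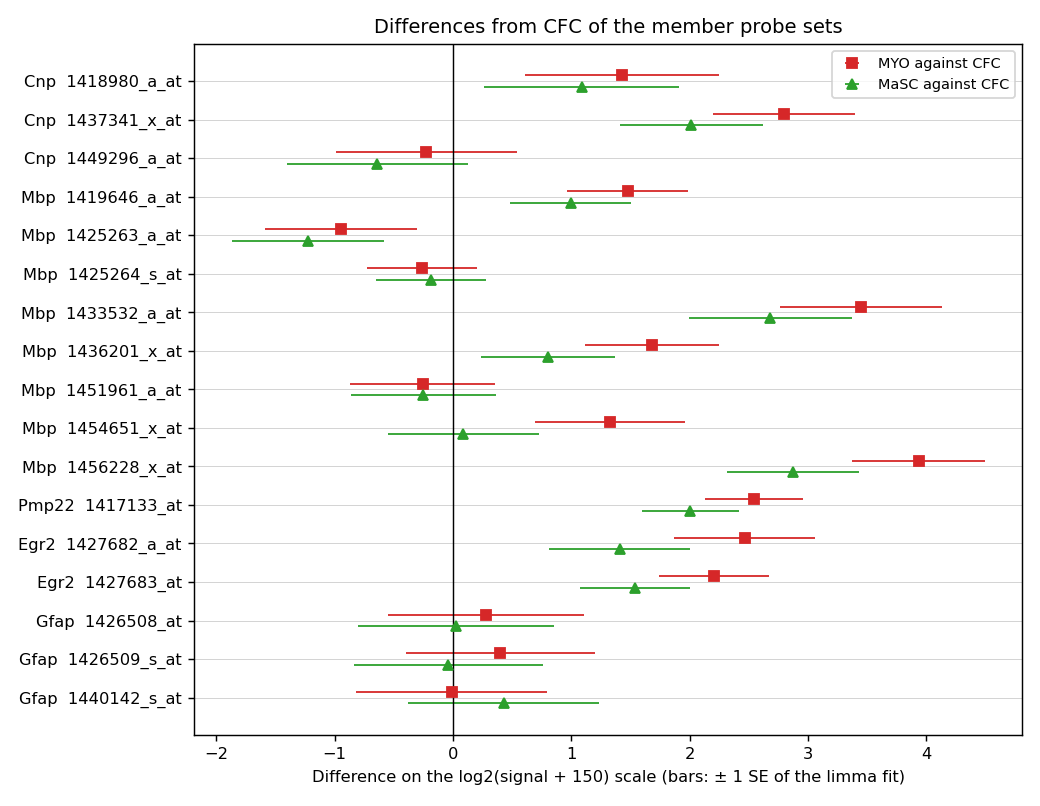
Difference from CFC on the log2(signal + 150) scale for each of the 17 member probe sets, with squares for MYO, triangles for MaSC and bars for 1 SE of the limma fit. Pmp22, both Egr2 sets, 2 Cnp sets and 2 Mbp sets lie above 1 for both populations, while the Gfap sets lie between -0.04 and 0.43.

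The other genes of myelin and of Schwann cells were taken from lists of 48 genes for Schwann cell identity, myelin proteins and myelin lipid synthesis. Of these, 43 were on the chips and 41 could be tested with 1 probe set each. Between MaSC and CFC 0 were called higher and 1 lower (limma, adjusted p), against 0.629% and 0.265% of 17339 genes, and 2 had an unadjusted p under 0.05. Between MYO and CFC 0 were called higher and 1 lower, against 0.9% and 0.45% of genes, with 4 at an unadjusted p under 0.05. The median log2 differences were 0.18 and 0.16, beside -0.03 and -0.02 over all genes, with 27 and 23 of 41 above 0. For MYO against MaSC the median was -0.06 and 0 were called in either direction (0 at an unadjusted p under 0.05).

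The gene called lower was Erbb3, the receptor through which neuregulin acts on Schwann cells and which is also made in luminal epithelium. Erbb3 1434606_at read 9985, 8872 and 6617 in CFC, 634, 1895 and 1238 in MYO, and 167, 2606 and 2707 in MaSC. The CFC samples lay above all others. Erbb3 differed by -2.65 ± 0.62 in MaSC (limma, adjusted p = 0.0215) and by -2.71 ± 0.62 in MYO (adjusted p = 0.0113), while its other probe set, 1452482_at, was dim and not called (0.99 in MYO, adjusted p = 0.848). With 1 sample left out, the count of called genes on these lists fell from 1 to 0 without CFC1, CFC2, CFC3 or MaSC1 for MaSC over CFC, and without CFC1, CFC2 or MYO1 for MYO over CFC, so no Erbb3 call remained there. The defining markers of Schwann cells analysed here were Sox10 and S100b.

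Sox10 encodes the transcription factor of the whole Schwann lineage and has also been described in mammary epithelium. Sox10 1451689_a_at read 2342, 1963 and 4183 in CFC, 12482, 5712 and 5309.9 in MYO, and 7940.4, 4480.5 and 4541 in MaSC. The MYO and MaSC samples were all higher than the CFC samples, but the differences were 1.38 ± 0.44 for MYO (limma, adjusted p = 0.14) and 0.98 ± 0.44 for MaSC (adjusted p = 0.508). The other Sox10 probe sets differed by -0.20 and 1.43 between MYO and CFC, neither called. S100b, which encodes a calcium-binding protein of glia, was below 300 in 12 of 18 values and reached 1182.5 at most. Summed over their 5 probe sets, Sox10 and S100b read 4266 to 9907 in CFC, 8453 to 17424 in MYO and 5969 to 11892 in MaSC. The ranges overlap. The whole Schwann identity list, 12 of its 16 genes with 27 probe sets of chip A, summed to 24251 to 30245 in CFC, 21101 to 33679 in MYO and 19726 to 24643 in MaSC. That sum holds Erbb3 1434606_at, which alone read 6617 to 9985 in CFC, 634 to 1895 in MYO and 167 to 2707 in MaSC. The list was not summed without Erbb3, so its sums do not show how the other genes compare between the groups. Sox10 1451689_a_at had its low values in CFC, as Pmp22 had, and its part in the members' values was not tested.

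**Figure D4:**
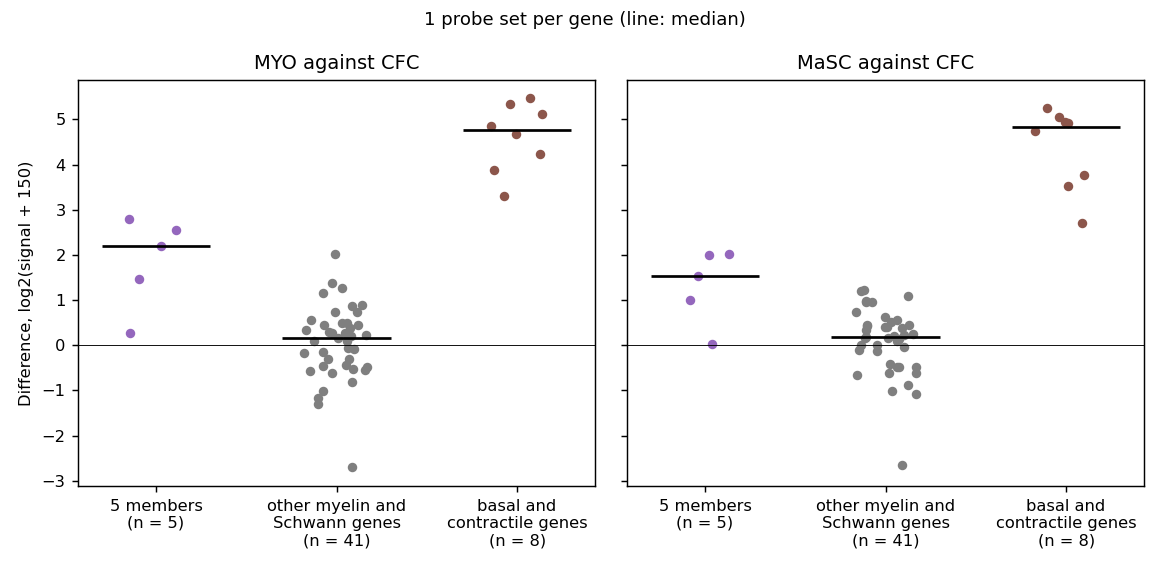
Difference from CFC on the log2(signal + 150) scale for the 5 members, the 41 other tested genes of the Schwann and myelin lists, and 8 basal and contractile genes that check the labels, 1 probe set per gene and a line at each median. The medians of the 41 genes are 0.16 in MYO and 0.18 in MaSC, the lowest point is Erbb3, and the basal genes have medians of 4.76 and 4.83.

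Relatives of each member were compared with it. Among the PMP22 family, Perp, a tetraspan protein of desmosomes, read 1757, 3046 and 2464 in CFC, 10058, 10589.8 and 15575 in MYO, and 4688, 11382 and 18219.9 in MaSC. It was higher than CFC in MaSC by 2.003 ± 0.433 (limma, adjusted p = 0.0108) and in MYO by 2.25 ± 0.43 (adjusted p = 0.00194). Emp1 was lower in MYO than in CFC, with a log2 difference of -2.06 ± 0.54 (limma, adjusted p = 0.0395), and differed by -0.88 in MaSC (adjusted p = 0.719). Emp2, Emp3, Lim2 and Tmem47 were not called, with log2 differences in MYO between -0.71 and 0.59 by 1 probe set a gene. Other sets lay outside this range and were not called: Tmem47 1420514_at at 0.93 and Emp2 1425273_s_at at -1.095. So 1 of 6 relatives of Pmp22 was called higher in both populations and 1 lower in MYO.

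Of the intermediate filament genes related to Gfap, 1 of 9 tested was called higher in MaSC and in MYO and 0 were called lower. This was Vim, the vimentin of mesenchymal and basal cells, which differed by 1.95 ± 0.46 in MaSC (limma, adjusted p = 0.0245) and 2.002 ± 0.461 in MYO (adjusted p = 0.0123), and all 3 Vim probe sets were called in both. Synm, which encodes synemin, was not called by its representative probe set (1.23 in MaSC, adjusted p = 0.912), whereas its set 1457275_at was called (3.13, adjusted p = 0.0238). By the representative probe set of each gene, Des, Prph, Nes, Ina, Nefm and Sync had absolute log2 differences under 0.4 in both comparisons. Some of their other sets differed more, in either direction, and were not called. Examples are Nes 1453997_a_at (-1.333 in MYO), Sync 1432349_a_at (-1.335 in MYO) and Nes 1449022_at (0.75 in MaSC). Nefl differed in MYO by -1.36 in 1426255_at (limma, adjusted p = 0.695) and by 0.56 in 1454672_at (adjusted p = 0.998).

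The genes next to Egr2 were the other EGR factors and the corepressors Nab1 and Nab2, which bind EGR proteins. By 1 probe set a gene, none of these 5 was called in any comparison by limma, with 0 at an unadjusted p under 0.05. Another Nab1 set, 1448781_at, differed by -1.94 ± 0.74 in MaSC from CFC and was not called (limma, adjusted p = 0.377). Egr1, the most widely induced EGR factor, read 60285, 18052 and 17448 in CFC, 33598, 87908 and 9210.4 in MYO, and 52906, 26738 and 22585 in MaSC. Its highest and lowest values were both in MYO, and MYO differed from CFC by 0.17 ± 0.56 (adjusted p = 0.987). Egr3 differed by 0.84, Egr4 by 0.01, Nab1 by -0.65 and Nab2 by 0.95 in the same comparison. Fos differed by 0.01 in MYO (adjusted p = 0.998) and -0.05 in MaSC (adjusted p = 0.991). Of 14 immediate early genes tested, 0 were called in MYO or MaSC over CFC, with 3 and 0 at an unadjusted p under 0.05 and medians of 0.51 and 0.26. Summed, they read 168539 to 341601 in CFC, 188400 to 481727 in MYO and 202747 to 268816 in MaSC, and the highest sum was in MYO2. MYO2 had the highest value of Egr2 1427683_at and the lowest MYO value of Egr2 1427682_a_at. Their part in the Egr2 values was not tested.

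**Figure D5:**
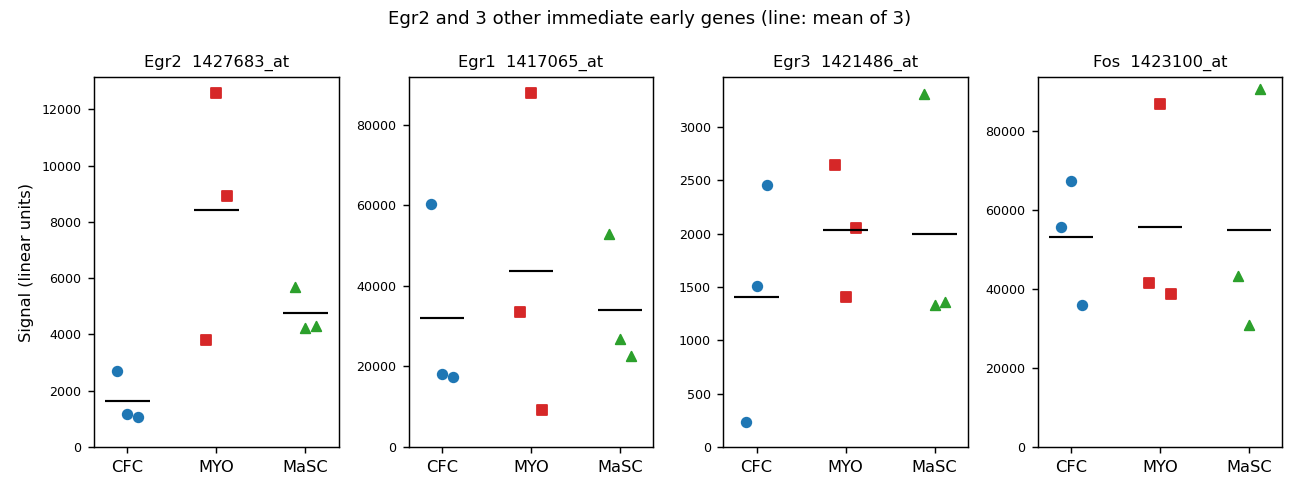
Signal (linear units) of Egr2 1427683_at and of Egr1, Egr3 and Fos in the 3 samples of each population, with a line at the mean. All CFC values of Egr2 lie below those of MYO and MaSC, whereas Egr1 has both its highest (87908 in MYO2) and its lowest value in MYO.

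Other cell types were followed with marker lists, as sums of signals over each list. Fibroblast markers read 13663 to 24986 in CFC, 37314, 70834 and 21507 in MYO1 to MYO3, and 14476 to 33287 in MaSC. In MYO 1 of 8 of them was called higher than in CFC, Col3a1, by 3.00 ± 0.72 (limma, adjusted p = 0.0178). An unadjusted p under 0.05 was reached by 4 of the 8, 7 of the 8 were above 0, and the median was 1.40. MYO2 had both the highest fibroblast sum and the highest value of the 5 Mbp sets and of Pmp22. The part of these cells in the members' values was not tested. Leukocyte sums were 6077 to 10471 in CFC, 6078 to 9517 in MYO and 5933 to 9308 in MaSC, and endothelial sums 9765 to 14471, 6996 to 15062 and 10709 to 15529. Adipocyte sums were 7235 to 18069, 6085 to 50250.4 and 7896 to 60893, with 0 of 5 genes called, and pericyte sums were 10795 to 15741, 10244 to 15724 and 7960.2 to 14073, with 0 of 8 called. Oligodendrocyte sums, over a list that shares Sox10 and Mag with the Schwann list, were 6390.0 to 13649 in CFC, 9975 to 18188.5 in MYO and 6845 to 16002 in MaSC, with 0 of 5 tested genes called. Astrocyte sums were 23675 to 25733 in CFC, 132266 to 199478 in MYO and 129712 to 149559 in MaSC. Of these 7 markers 1 was called, Gja1, a connexin also made by myoepithelial cells, higher by 3.15 in MaSC (adjusted p = 3.11e-06) and 3.53 in MYO (adjusted p = 2.73e-07).

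The genes with the most similar profiles were found by Pearson's r of log2 signals over the 9 RNA samples. They were sought among 11491 genes of chip A, of which those with clone-type names were skipped in the ranking. For Cnp 1437341_x_at they were Dst (0.95), Cxcl12 (0.95), Igfbp4 (0.95), Trim29 (0.95) and Emb (0.95). For Pmp22 they were Gnai1 (0.99), Luzp1 (0.98) and Cdcp1 (0.98), and for Egr2 1427683_at Hnrnph3, Plpp1 and Phlda3 (0.95 each). For Mbp 1419646_a_at they were Hivep2 (0.93), Neurog1 (0.92) and Rnf128 (0.92), and for Gfap 1426508_at Abl1 (0.95), Rrp8 (0.93) and Phpt1 (0.92). These values rest on 9 samples in 3 groups that share arrays, and are a description with no test. No myelin or Schwann gene of the lists was among them.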

How the data were processed

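RNA of 9 samples was measured on 2 chips, 18 arrays in all. The authors deposited 1 intensity per probe set and array, on a linear scale. Of software, the submitters' processing notes name MAS5 alone; the sources used here give neither its version nor its target. The chip handling notes that were deposited hold other values (sample, chip, scan day). Gene symbols came from the platform annotation, updated through gene identifiers. The files name no genome build. No further scaling was made. Control probes stayed out, and the 100 probe sets common to both chips were tested on chip A.

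A probe set was tested where 3 of 9 arrays reached a signal of 300 (20% of the mean), with limma 3.58.1 in R 4.3.3 (lmFit, eBayes with a trend) on log2(signal + 150), 150 being 10% of the mean. Each chip had 1 fit over its 9 arrays, with Benjamini-Hochberg adjustment within chip and comparison and calls at an adjusted p under 0.05. The fit was tested on simulated data for MaSC against CFC on chip A. The changed probe sets were drawn only from brighter ones, with means well above 300, so the shares called do not cover dim probe sets. Of true log2 changes of 1, 2, 3 and 4, it called 4%, 28%, 66% and 62%, and of unchanged probe sets 0.0258%. A gene that was not called may therefore still differ. A listed gene is represented by a chip A probe set where one was tested, then by the highest mean log2 signal. The number of arrays, 3 per group and chip, limits the precision.

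The members and lists were chosen with earlier results of these data known. Named were all member probe sets, Sox10 and S100b, the relatives of Pmp22, Egr2 and Gfap, up to 4 called genes per list and comparison, Egr1 and Fos, the 5 genes most like Cnp and the 3 most like each other member, and 5 genes that check the labels. Further probe sets of Synm, Erbb3, Krt14, Krt8, Acta2, Nes, Sync, Nefl, Tmem47, Emp2 and Nab1 were named after their values were seen. Alternatives were the pseudocount, filter, normalization, variance model, samples, replicate number, scan day and each sample left out; leaving out x_at sets was added after seeing the data.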

Additional observations from a re-analysis of the deposited data

How the results depend on the processing

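The 3 calls of MaSC over CFC among the members became 0 when eBayes ran without a trend, and 1 to 3 when each sample was left out in turn. With the replicate block (replicate number as a block) there were again 3. Between samples of the same number, deviations from the group means correlated at -0.113 to 0.118 (1 of 18 pairs above 0.1). The range was 0.01 to 0.118 for MYO with MaSC, -0.113 to -0.015 for CFC with MaSC and -0.072 to 0.044 for CFC with MYO. Samples of unlike numbers were not compared, so whether the numbers pair the samples was not tested. Mbp 1456228_x_at was called in 9 of 9 fits with a sample left out and in 9 of 10 others (adjusted p = 0.136 without a trend). Pmp22 was called in 7 of 9 and 9 of 10 (0.209 without a trend). Mbp 1433532_a_at was called in 2 of 9 and 1 of 10, with adjusted p from 0.00473 to 0.304. The count of other myelin and Schwann genes called (Erbb3) became 0 with a pseudocount of 1% of the mean and without a trend, in MaSC and in MYO over CFC, and was 0 to 1 with samples left out. The median of MYO over CFC was 0.40 without x_at sets and 1.00 to 1.70 with samples left out; that of MYO over MaSC was 0.30 to 0.72. Small MaSC differences changed sign: Gfap 1426509_s_at was 0.58 with scan day as a block and 0.42 within the first scan day. With samples left out it ran from -0.47 to 0.42, Gfap 1426508_at from -0.46 to 0.60, Gfap 1440142_s_at from -0.017 to 1.25, Mbp 1454651_x_at from -0.29 to 0.68, Mbp 1425264_s_at from -0.40 to 0.13 and Cnp 1449296_a_at from -1.27 to 0.16. The cause was not tested. Signals under 300 limit what Gfap and S100b can show.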
